A study of Caenorhabditis elegans with 8 samples.

Results

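The genes described here are the vitellogenins of *Caenorhabditis elegans*, the oocyte receptor that takes them up and the transcription factors UNC-62 and CEH-60. They were chosen by name, as vit-1 to vit-6, rme-2, unc-62 and ceh-60. Of these 9 genes, 8 were each named by 1 probe set, out of 25478 genes measured. vit-3 was named by 0 probe sets, and 0 probe sets were annotated to several vit genes, so no shared vitellogenin row existed. Messenger RNA came from whole worms synchronised by bleaching, fed on *Escherichia coli* OP50 and collected on day 1 of adulthood without treatment. The groups were wild type (N2), with 4 arrays, and mir-71(n4115), a mutant strain of the microRNA gene mir-71, also with 4. Whether a group's samples were grown as separate cultures is not stated in the labels, and the p-values then reflect only how these samples spread, which may be technical. In such bulk samples, fewer cells of a type and less RNA per cell cannot be told apart.

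Vitellogenins are the yolk lipoproteins of egg-laying animals. In *C. elegans* they are made in the intestine of adult hermaphrodites, secreted into the body cavity and taken up by oocytes through RME-2, a receptor of the low-density lipoprotein receptor family. UNC-62, a homeodomain protein of the MEIS family, and CEH-60, one of the PBX family, are both known to act in the intestine on vit gene transcription. vit-6 encodes the precursor of the smaller yolk proteins, and the other vit genes encode the large ones.

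The values are log2 signals made by RMA, a method that normalises arrays to each other, which hides any change common to most genes. A step of 1 is a doubling of signal, and signals of different probe sets are not compared as amounts. Array medians lay between 5.20 and 5.30. Since 0 named probe sets listed mir-71, the label of the mutant strain could not be checked on that gene. Wild-type replicate 4 stood apart: its correlation across probe sets was 0.986 to 0.993 with mutant arrays and 0.961 to 0.976 with wild-type replicates 1 to 3. It was kept in its labelled group, and the values of the members and of the named list genes are given with and without it.

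No member passed the test between genotypes. Over all 26192 probe sets with a gene, 1.95% passed limma's test at an adjusted p of 0.05 (Benjamini-Hochberg over the whole table), and of the 8 members 0 did. At an unadjusted p under 0.05 stood 1 member, unc-62, against 26.3% of all probe sets. Of the 8 members 6 were lower in the mutants, with a median log2 difference of -0.19 beside 0.02 over all probe sets. Their wild-type replicate 4 value was nearer to the mutant mean than to the mean of wild-type replicates 1 to 3 in 8 of 8, as in 72.2% of all probe sets. With that array left out 4 members fell and 1 rose, on a background where 37.1% of all probe sets passed. In that setting 7 of 8 members did not overlap between groups, as in 43.1% of all probe sets.

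**Figure D1:**
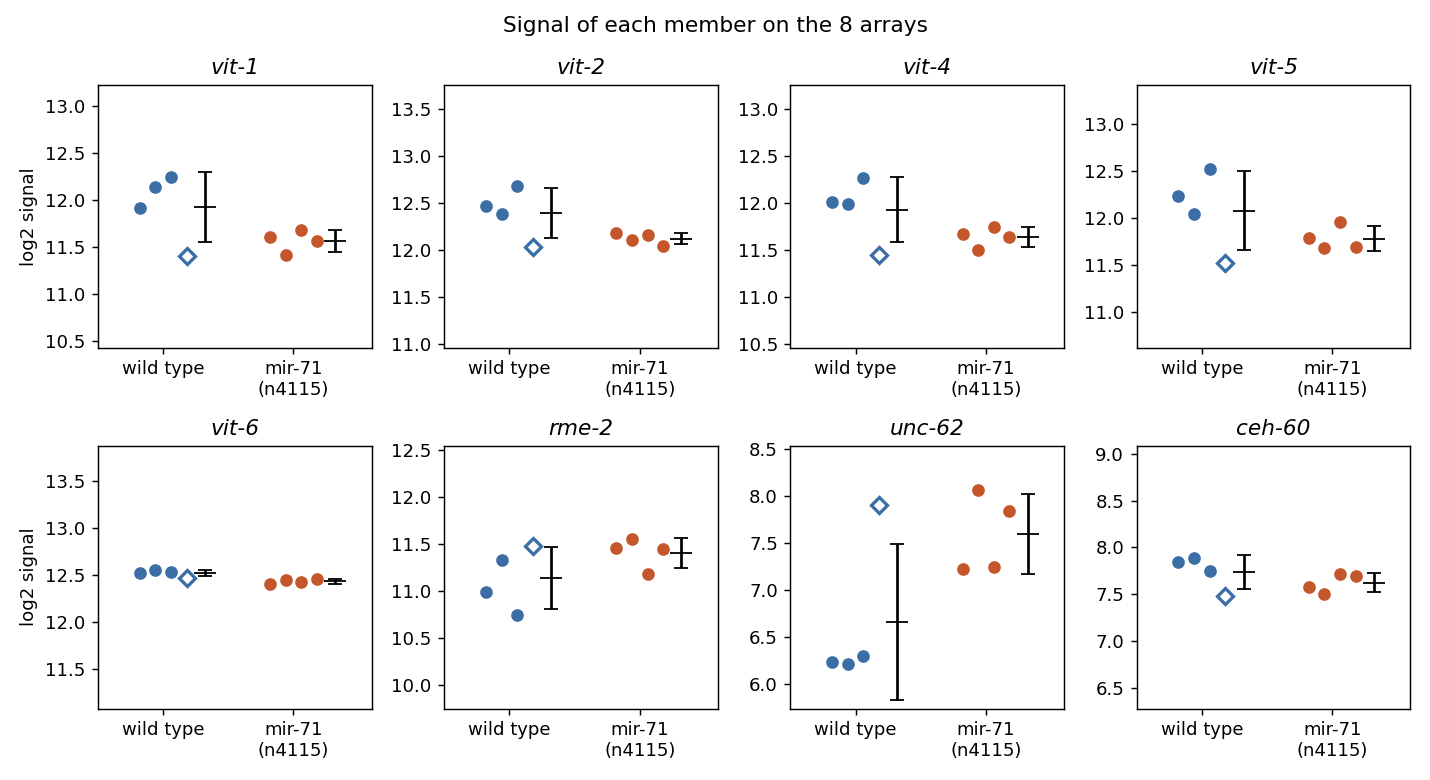
Log2 signal (vertical axis) of each member in the 4 wild-type (blue) and 4 mir-71(n4115) (orange) arrays, with mean ± SD beside the points; the open diamond is wild-type replicate 4, and every panel spans the same number of log2 units. For vit-1, vit-2, vit-4 and vit-5 the diamond lies below all 4 mutant arrays, and for unc-62 it lies at 7.90, where wild-type replicates 1 to 3 lie between 6.20 and 6.30.

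Among the vitellogenins, the 4 measured genes on chromosome X moved from array to array together, as did some genes outside the family. vit-1 (K09F5.2) read 11.92, 12.14, 12.25 and 11.41 in wild-type replicates 1 to 4 and 11.61, 11.42, 11.68 and 11.56 in mutant replicates 1 to 4. Wild-type replicate 4 was the lowest of the 8 arrays, so the groups overlapped, while all 4 mutants lay below wild-type replicates 1 to 3. The log2 difference of vit-1 was -0.36 ± 0.18 (SE, n = 4 per group; limma, adjusted p = 0.233), with a 95% interval, from limma's moderated error, of -0.78 to 0.05. Without wild-type replicate 4 the wild-type signal of vit-1 was 1.45 times that of the mutants (log2 difference -0.54 ± 0.12, adjusted p = 0.00876).

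vit-2 (C42D8.2), a gene for a large yolk protein, read 12.46, 12.38, 12.68 and 12.03 in wild-type replicates 1 to 4. It read 12.18, 12.11, 12.15 and 12.04 in the mutants. The mutants spanned 0.13, less than the 0.30 between wild-type replicates 1 to 3, and replicate 4 again lay just below all of them. The difference of vit-2 was -0.27 ± 0.15 (SE; adjusted p = 0.257), and -0.39 ± 0.11 without replicate 4 (adjusted p = 0.0244).

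vit-4 (F59D8.2) and vit-5 (C04F6.1) belong, with the unmeasured vit-3, to the vit genes that resemble each other closely. Their probe sets may bind RNA of more than 1 of these genes, and the probe sequences were not used here. vit-4 read 12.02, 11.99, 12.27 and 11.45 in the wild type and 11.68, 11.50, 11.74 and 11.64 in the mutants. vit-5 read 12.23, 12.04, 12.51 and 11.51 in the wild type and 11.79, 11.67, 11.96 and 11.69 in the mutants. In both, wild-type replicate 3 was the highest array and wild-type replicate 4 the lowest. vit-4 differed by -0.29 ± 0.17 (SE; limma, adjusted p = 0.297) and without replicate 4 by -0.45 ± 0.12 (adjusted p = 0.0162). vit-5 differed by -0.30 ± 0.20 (adjusted p = 0.355) and without replicate 4 by -0.48 ± 0.14 (adjusted p = 0.0249). The 95% intervals over all arrays ran from -0.68 to 0.10 for vit-4 and from -0.75 to 0.16 for vit-5.

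The noncoding gene F59D8.3, chosen after its values were seen because the RefSeq annotation (WBcel235) overlaps it with an end of vit-4, did not follow vit-4. Its wild-type arrays lay between 11.28 and 11.76 and its mutant arrays between 11.68 and 11.90. Its difference was 0.20 ± 0.13 (SE; limma, adjusted p = 0.340), and 0.24 without replicate 4 (adjusted p = 0.195), above zero where that of vit-4 was below it. Whether either probe set reads the RNA of the other gene was not tested.

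vit-6 (K07H8.6), on chromosome IV, varied least. It read 12.52, 12.55, 12.53 and 12.47 in wild-type replicates 1 to 4 and 12.40, 12.45, 12.42 and 12.45 in the mutants. All 4 mutants lay below all 4 wild types, replicate 4 included, as in 5.09% of all probe sets. In a further 6.06% of all probe sets the groups did not overlap with the mutants higher. Over both directions vit-6 was the 1 member whose groups did not overlap, and nothing is read from that count. The gap was small, -0.09 ± 0.10 (SE; limma, adjusted p = 0.577, 95% interval -0.30 to 0.13), and -0.10 without replicate 4 (adjusted p = 0.430). With quantile normalisation, which makes the signal distributions of the arrays identical, its difference was 0.011 ± 0.10, so its direction depends on the scaling. Its signals lay near the top of the scale, the maximum of each array over all probe sets being 12.72 to 13.10.

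The vit genes therefore differed in how far they spread over the arrays. Over all 8 arrays the SD of log2 signal was 0.32 for vit-1, 0.23 for vit-2, 0.28 for vit-4, 0.33 for vit-5 and 0.05 for vit-6. vit-4 lay nearest to the mean centred profile of the 4 genes on X, with a root mean square difference of 0.02. vit-6 lay 0.23 from it. The profile is the mean of vit-1, vit-2, vit-4 and vit-5, so it holds vit-4 but not vit-6, which by itself widens this contrast. Within the mutants, vit-1, vit-4 and vit-5 were lowest in replicate 2 and highest in replicate 3, while vit-2 was lowest in replicate 4 and highest in replicate 1.

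**Figure D2:**
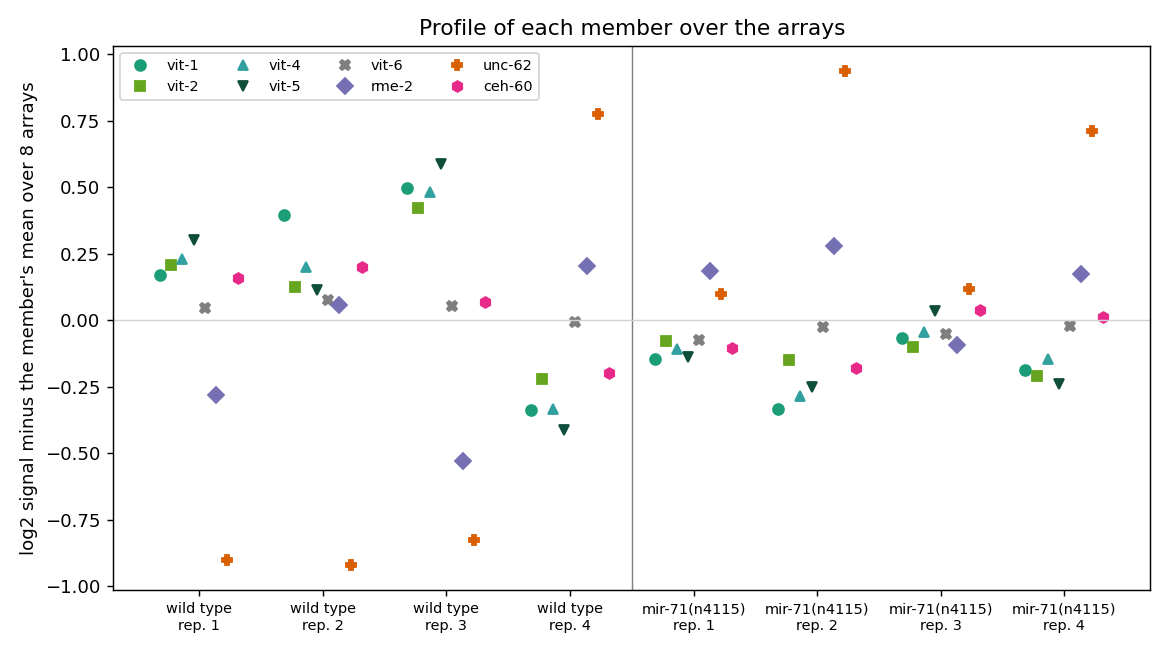
Log2 signal of each member minus its own mean over the 8 arrays (vertical axis), by array (horizontal axis), with 1 marker per member; the grey line parts the genotypes. The 4 vit genes of chromosome X move together and are highest in wild-type replicate 3 and lowest in wild-type replicate 4, unc-62 is low in wild-type replicates 1 to 3 alone, and vit-6 stays near zero.

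rme-2 (T11F8.3), the yolk receptor of oocytes, ran the other way. It read 10.99, 11.33, 10.75 and 11.48 in wild-type replicates 1 to 4 and 11.46, 11.55, 11.18 and 11.45 in the mutants. The groups overlapped with or without wild-type replicate 4. Its lowest array was wild-type replicate 3, in which the 4 vit genes of chromosome X were highest. rme-2 differed by 0.27 ± 0.18 (SE, n = 4 per group; limma, adjusted p = 0.332), with a 95% interval of -0.12 to 0.67. Without replicate 4 it differed by 0.39 ± 0.16 and did not pass (adjusted p = 0.0882). With arrays weighted by their fit, which gave replicate 4 a weight of 0.17, rme-2 passed (0.37 ± 0.13, adjusted p = 0.0486), with 6 of 8 members and 41.3% of all probe sets.

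unc-62 (T28F12.2), the MEIS factor, had the largest difference of the 8 members. It read 6.23, 6.20 and 6.30 in wild-type replicates 1 to 3, 7.90 in wild-type replicate 4, and 7.22, 8.06, 7.24 and 7.84 in the mutants. Replicate 4 lay above 3 of the 4 mutants, and the mutants themselves fell into a lower pair, replicates 1 and 3, and a higher pair, replicates 2 and 4. The log2 difference of unc-62 was 0.93 ± 0.39 (SE; limma, adjusted p = 0.172, 95% interval 0.06 to 1.81). Without wild-type replicate 4 the groups did not overlap and the mutant signal was 2.55 times that of the wild type (1.35 ± 0.21, adjusted p = 0.00151). Without that array 22.8% of all probe sets were higher in the mutants with no overlap. RefSeq lists 8 transcripts of unc-62 and 1 probe set measured it, so isoforms could not be told apart.

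ceh-60 (F22A3.5), the PBX factor, differed little. It read 7.84, 7.88, 7.75 and 7.48 in wild-type replicates 1 to 4 and 7.58, 7.51, 7.72 and 7.70 in the mutants. As for the vit genes of chromosome X, replicate 4 was the lowest array and the other wild types lay above all mutants, a pattern without replicate 4 that 20.4% of all probe sets had. The log2 difference of ceh-60 was -0.11 ± 0.13 (SE; limma, adjusted p = 0.575, 95% interval -0.40 to 0.17), and -0.20 ± 0.11 without replicate 4 (adjusted p = 0.176). The arrays that read high for unc-62 were thus not those that read high for ceh-60.

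**Figure D3:**
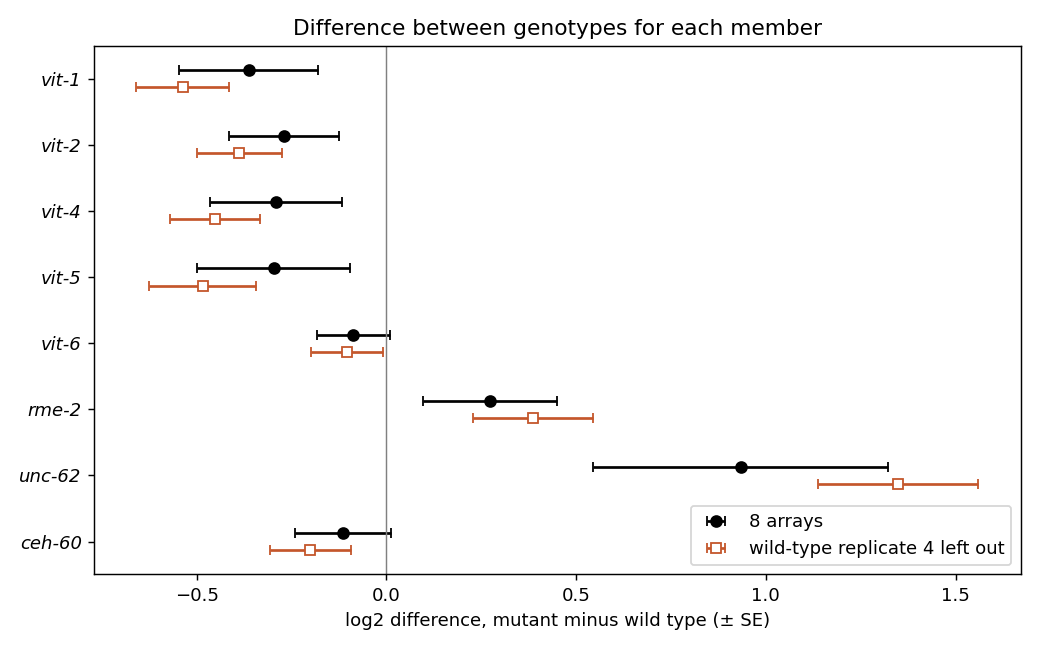
Log2 difference between genotypes, mutant minus wild type (horizontal axis), for each member, with bars for ± SE: filled circles use 8 arrays and open squares leave out wild-type replicate 4. Leaving it out moves each estimate away from zero, from 0.93 to 1.35 for unc-62 and from -0.36 to -0.54 for vit-1.

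The difference between genotypes rose with gene length, and the members are of unequal length. The trend, fitted over all genes with a length, amounted to a log2 difference of 0.15 to 0.16 at the length of the vit genes, 0.01 at that of rme-2, 0.25 at that of ceh-60 and 0.39 at that of unc-62. Without wild-type replicate 4 it amounted to 0.22 to 0.23 for the vit genes and 0.55 for unc-62. With the trend removed from each array the difference of unc-62 was 0.54 ± 0.26 (SE; limma, adjusted p = 0.221), smaller than before. Those of vit-2 (-0.42 ± 0.19), vit-6 (-0.25 ± 0.12) and ceh-60 (-0.36 ± 0.19) were larger, with adjusted p from 0.198 to 0.244. With replicate 4 left out as well, 35% of all probe sets passed and 7 of 8 members did, rme-2 being the exception (adjusted p = 0.0899). There unc-62 differed by 0.79 ± 0.19 (adjusted p = 0.0114), vit-1 by -0.77 ± 0.13 (adjusted p = 0.00310), vit-6 by -0.34 ± 0.09 (adjusted p = 0.0229) and ceh-60 by -0.55 ± 0.11 (adjusted p = 0.00600).

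Other DNA-binding factors of vitellogenin control were measured for 11 of 12 listed genes, and 0 passed, 3 having an unadjusted p under 0.05. Of all probe sets 26.3% stood under that level. In the mutants 8 of the 11 read higher, and the median log2 difference was 0.43 beside 0.02 for all probe sets. The lowest p was that of ceh-20, a further PBX gene, which read 9.41, 9.32, 9.36 and 9.80 in the wild type and 10.32, 10.04, 10.09 and 10.02 in the mutants. Its groups did not overlap, replicate 4 included, as in 6.06% of all probe sets in this direction. The difference of ceh-20 was 0.65 ± 0.14 (SE; limma, adjusted p = 0.0552). It passed with array medians subtracted (adjusted p = 0.0469), with the length trend removed (adjusted p = 0.0482), with array weights (adjusted p = 0.00107) and without replicate 4 (adjusted p = 0.00118), and in 0 of 7 cases with another array left out.

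The next factors were picked after their values were seen. elt-2, the GATA factor of the intestine, read 8.53 to 8.97 in wild-type replicates 1 to 3, 9.32 in replicate 4 and 9.16 to 9.67 in the mutants (difference 0.62, adjusted p = 0.118; without replicate 4, 0.77 and 0.00700). pqm-1, a zinc finger factor of the intestine, overlapped between groups and differed by -0.32 (adjusted p = 0.301; without replicate 4, -0.44 and 0.0836). hbl-1, a heterochronic factor, read 10.48 in replicate 4 against 8.95 to 9.59 in the other wild types and 10.53 to 10.79 in the mutants (difference 1.21, adjusted p = 0.0798; without replicate 4, 1.54 and 0.000311). For elt-2 and hbl-1, replicate 4 thus read above every other wild type.

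The list of signalling upstream of the vit genes held insulin, TOR complex and TGF-beta pathway genes, and besides these alg-1 and mdt-15. It was measured for 14 of 14, and 0 passed, 4 having an unadjusted p under 0.05, beside 26.3% of all probe sets. In the mutants 12 of 14 read higher, and the median log2 difference was 0.34. The lowest p was that of alg-1, an Argonaute of the microRNA pathway. It read 9.26, 9.30 and 9.24 in wild-type replicates 1 to 3, 10.35 in replicate 4 and 10.07, 10.44, 9.97 and 10.38 in the mutants, with a difference of 0.67 ± 0.26 (SE; limma, adjusted p = 0.148). Without replicate 4 the difference of alg-1 was 0.94 and passed (adjusted p = 0.00110). alg-1 shows the same pairs as unc-62, with mutant replicates 2 and 4 above replicates 1 and 3.

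Genes of yolk uptake and endosome trafficking, which act with the receptor, were measured for 21 of 21, and 0 passed. At an unadjusted p under 0.05 stood 9, against 26.3% of all probe sets. In the mutants 17 read higher, with a median of 0.29. The small GTPase gene rab-35, whose product recycles the yolk receptor, read 10.34, 10.48, 10.26 and 10.88 in the wild type and 11.06, 10.87, 11.09 and 11.01 in the mutants. Its difference was 0.52 ± 0.15 (SE; limma, adjusted p = 0.101), and the groups touched only through replicate 4, without which it was 0.65 and passed (adjusted p = 0.00227). In lipoprotein assembly and phospholipid synthesis 0 of 13 passed, and 8 read higher, with a median of 0.32. Of these 13, 6 had an unadjusted p under 0.05, beside the same 26.3% of all probe sets. acs-22, an acyl-CoA synthetase gene, had the lowest p, with a difference of 0.32 ± 0.11 (adjusted p = 0.129). Without replicate 4 that of acs-22 was 0.37 (adjusted p = 0.0237). With the length trend removed it was 0.058 (adjusted p = 0.779), and with both done -0.0064, so its direction depends on that correction.

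In these 4 lists, for most genes, wild-type replicate 4 was nearer to the mutant mean than to that of replicates 1 to 3. That held for 10 of 11, 12 of 14, 18 of 21 and 12 of 13 genes, beside 72.2% of all probe sets. Replicate 4 lay above wild-type replicates 1 to 3 by a median of 0.62 for the DNA-binding factors and 0.44 for signalling. For uptake the median was 0.41 and for lipid assembly 0.50. Without it 7, 8, 12 and 7 genes of these lists rose and 0, 1, 1 and 0 fell, where 19.3% of all probe sets rose and 17.8% went down. After the length trend was taken out, over all 8 arrays, the medians were 0.15, 0.08, 0.25 and 0.12.

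**Figure D4:**
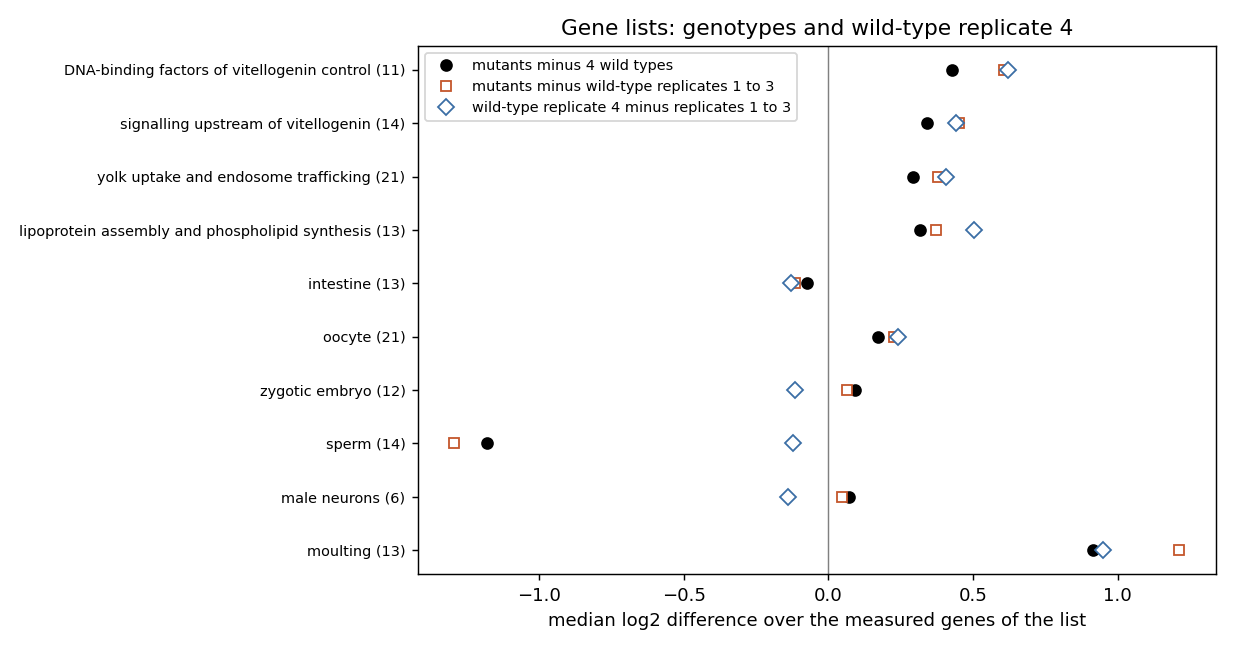
Median log2 difference over the measured genes of each list (horizontal axis; number of genes in brackets), for mutants against all wild types (filled circles), mutants against wild-type replicates 1 to 3 (squares) and wild-type replicate 4 against replicates 1 to 3 (diamonds). The diamond lies close to the square for most lists. Both subtract the mean of the same wild-type replicates 1 to 3, which by itself pushes them the same way. For zygotic embryo (-0.11 and 0.07) and male neurons (-0.14 and 0.05) diamond and square have opposite signs. For sperm the diamond lies at -0.12 and the square at -1.29. Of those 14 sperm genes 8 were listed as already known to have fallen, so nothing is read from that gap.

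Markers of the tissues that make, take up or lack yolk were read beside these results. Of 13 intestine markers 0 were called, and 4 stood at an unadjusted p under 0.05, against 26.3% of all probe sets. Of these markers 5 read higher and 8 lower in the mutants, and the median log2 difference was -0.07. The log2 of their summed signals, to which the brightest probe sets add most, was 13.87 to 14.03 in wild-type replicates 1 to 3, 14.09 in replicate 4 and 13.95 to 14.17 in the mutants. The gut esterase gene ges-1 read 8.63, 8.93, 8.76 and 7.86 in the wild type and 7.58, 7.26, 7.71 and 7.42 in the mutants. Its groups did not overlap, and its difference of -1.05 ± 0.23 (SE; limma, adjusted p = 0.0534) lay next to the threshold. Without replicate 4 the difference of ges-1 was -1.28 (adjusted p = 0.000282). The intermediate filament gene ifb-2, picked after its values were seen, ran the other way. It read 9.19 to 9.46 in wild-type replicates 1 to 3, 9.82 in replicate 4 and 9.95 to 10.21 in the mutants, a difference of 0.61 (limma, adjusted p = 0.0763), and 0.73 without replicate 4 (adjusted p = 0.00184). Of 21 oocyte markers 0 were called and 0 stood at an unadjusted p under 0.05, against the same 26.3%. The median of the oocyte markers was 0.17. Their summed signals were 15.63 to 15.80, 15.92 and 15.79 to 15.92 in the same order. mex-3, an RNA-binding protein gene of oocytes and embryos, had the lowest p of these (0.54 ± 0.25, adjusted p = 0.199; without replicate 4, 0.81 and 0.00224).

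Moulting markers rose for noah-2 (1.14 ± 0.23 SE; limma, adjusted p = 0.0426) and noah-1 (0.92, adjusted p = 0.0493), and the other 11 of 13 were not called, where 0.645% of all probe sets rose. In the mutants 12 of 13 read higher, and the median was 0.91. At an unadjusted p under 0.05 stood 10, against 26.3% of all probe sets. In 13 of 13 replicate 4 lay closer to the mutant mean than to that of wild-type replicates 1 to 3. The same held for 21 of 21 oocyte markers, 12 of 13 intestine markers and 72.2% of all probe sets. Without replicate 4, 11 moulting markers rose, where 19.3% of all probe sets did. There noah-2 rose by 1.38 and noah-1 by 1.12 (limma, adjusted p = 0.000168 and 0.000181). With the replicate block noah-2 (adjusted p = 0.0584), noah-1 (0.0599) and the zygotic embryo marker cnd-1 (0.0682) did not pass. The log2 of the summed moulting signals was 11.21 to 11.48 in wild-type replicates 1 to 3, 12.37 in replicate 4 and 12.39 to 12.60 in the mutants. Of 14 sperm markers 8 fell and 0 rose, where 1.31% of probe sets fell. These 8 were already known to have fallen on these arrays when the list was drawn up, so nothing is read from the count. Of the other 6 sperm markers 0 passed in limma and 2 stood at an unadjusted p under 0.05. The log2 of the summed sperm signals was 10.46 to 10.69, 10.32 and 9.08 to 9.55. Replicate 4 was nearer to the other wild types in 7 of the 14 sperm markers and in 5 of the 8 that fell. The 8 passed with replicate 4 counted as wild type, which favours such nearness. Nothing is read from these counts or from the summed sperm signals. msp-38, a major sperm protein gene, differed by -1.34 (adjusted p = 0.0114) and msp-78 by -1.44 (adjusted p = 0.0127), and without replicate 4 by -1.43 and -1.46 (adjusted p = 0.000354 and 0.000957). The helix-loop-helix gene cnd-1 was the 1 riser among 12 zygotic embryo markers (0.65, limma, adjusted p = 0.0485), and 0 fell. Without replicate 4 the difference of cnd-1 was 0.72 (adjusted p = 0.00225). The list was split, with 7 of 12 higher and 5 lower in the mutants and a median of 0.09. Without replicate 4, 3 rose and 4 fell, where 19.3% of all probe sets rose and 17.8% went down. Their summed signals were 12.63 to 12.66, 12.59 and 12.64 to 12.79. The largest part of this sum was pal-1, with a mean of 12.03 in both genotypes, so the sum says little of the dimmer markers. Whether that RNA came from zygotic transcription was not tested. Male neuron markers had 0 of 6 called and 0 at an unadjusted p under 0.05, against 26.3% of all probe sets. Their summed signals were 6.02 to 6.09, 6.04 and 6.01 to 6.15. Among them cwp-3 had the lowest p (0.15, limma, adjusted p = 0.402, and 0.11 and 0.468 without replicate 4). These 6 probe sets were dim, with 9.33% (cwp-2) to 40.4% (pkd-2) of all probe sets dimmer, so nothing is read from their lack of change. With 1 of the 7 arrays other than wild-type replicate 4 left out, noah-1, noah-2 and cnd-1 passed in 0 of 7 cases, msp-38 in 6 and msp-78 in 4. The part of these markers in the members' values was not tested.

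The genes whose profile over the 8 arrays was most like that of the measured vit genes were sought among 12731 genes brighter than the median, as the smallest root mean square difference of centred log2 signals. They were C03F11.4 (0.03), har-2, vha-1, rbm-3.2 and ant-1.1 (each 0.04), where the vit profile itself had a spread of 0.22. The vit genes' own distances from that profile ran from 0.04 for vit-2 to 0.19 for vit-6. The shared movement was thus not particular to the vit genes. vha-1 encodes a subunit of the vacuolar ATPase and ant-1.1 a mitochondrial adenine nucleotide carrier. vha-1 read 12.24, 12.16, 12.31 and 11.68 in the wild type and 11.84, 11.78, 11.90 and 11.79 in the mutants. Like the vit genes of chromosome X it was highest in wild-type replicate 3 and lowest in wild-type replicate 4. Of these 5, 0 passed over all arrays (limma, adjusted p from 0.212 to 0.295). Without replicate 4, 5 passed (adjusted p from 0.0115 to 0.0255), where 37.1% of all probe sets did. Likeness on the same arrays chose these genes, so nothing is read from the counts.

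The genes nearest to rme-2 were tps-2 (a trehalose phosphate synthase gene), ints-13 (an Integrator subunit gene) and F37A4.1, each at a root mean square difference of 0.04. Nearest to unc-62 were F52G3.1, vab-19 (an ankyrin repeat protein gene) and lelo-2, each at 0.10. vab-19 read 5.26, 5.34 and 5.36 in wild-type replicates 1 to 3, 7.09 in replicate 4 and 6.43, 6.97, 6.21 and 6.81 in the mutants. It repeats the pattern of unc-62, with a difference of 0.84 ± 0.40 (SE; limma, adjusted p = 0.209). Nearest to ceh-60 were F17C11.4, ndx-9 and C13G5.2, at 0.04 to 0.05. Over all arrays 0 of these 9 genes passed, with adjusted p from 0.208 to 0.813. Without replicate 4 the 3 nearest to unc-62 passed (limma, adjusted p from 0.000932 to 0.00229) and 0 of the other 6 did. In that setting 37.1% of all probe sets passed. Each gene was chosen for following its member on the same arrays, so these counts add nothing to the members' own results.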

How the data were processed

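Total RNA was isolated with Trizol and RNeasy and made into biotinylated cRNA, per the labels' protocols. The deposited log2 values are 1 table of 29317 probe sets by 8 arrays, and the authors used Partek 6.6 and RMA, per the submitters' processing notes; the sources used here do not give their order or settings. The log2 scale was read from the values' range and from RMA.

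Of the 26192 probe sets with a gene in the annotation GEO holds for this platform, possibly outdated, 25546 had 1 symbol and 646 several; 25495 matched the RefSeq table of WBcel235, used for names, chromosomes, overlaps and gene lengths. Other rows are unnamed here and were left out. Each gene was its brightest probe set. Genotypes were compared with limma 3.58.1 in R 4.3.3 (lmFit, eBayes, 2-sided, no covariate), as tested on simulated data; bars are SE or SD of 4 arrays per group. Array number limits the precision, with a median SE of 0.17.

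Members and lists were chosen with earlier results of these data known. Named genes were every member, the lowest p of each list (up to 2 risen and 2 fallen where any passed) and the nearest profiles. Alternatives were quantile normalisation, array medians subtracted, the replicate block, the dimmest 40% left out, trend and robust eBayes, array weights, a length trend removed by loess, other thresholds and each array left out. Sequences were not used here.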

Additional observations from a re-analysis of the deposited data

Results flagged for a closer look

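Within groups of 4 arrays, the gap of the highest or lowest array to its neighbour, divided by the group's range, was compared with Dixon's 95% critical value, which chance passes in about 1 of 20 groups. Of 40 groups checked 4 passed it, 3 of them through wild-type replicate 4. unc-62 passed at 0.944, with 7.90 in wild-type replicate 4 and 6.30 in the next array. alg-1 passed at 0.947, with 10.35 against 9.30 in the same array. mex-3 passed at 0.850, with 10.91 against 9.96, again in wild-type replicate 4. msp-78 passed at 0.878 through wild-type replicate 1, with 8.86 against 8.48. Of the 16 groups of the members, that of unc-62 was the 1 that passed.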

How the results depend on the processing

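No member was called under quantile normalisation, array medians subtracted, the replicate block, the dimmest 40% left out, trend and robust eBayes, the length trend removed over all arrays, or with any array but wild-type replicate 4 left out; array weights and that array changed this. Across all probe sets 511 passed as reported, 34 at an adjusted p of 0.01 and 10822 with array weights. The labels do not say that the replicate numbers pair the samples, and they were not taken to do so. The deviations of same-numbered arrays correlated at -0.11 to 0.37, and 4 of 8 arrays resembled their own number best. These values do not settle whether the samples were paired, so the replicate block is given as an alternative. With the replicate block 380 probe sets and 0 members passed, and the lists had 4 calls for sperm and 0 each for moulting and zygotic embryo. The direction of vit-6 turned with quantile normalisation (0.011), where moulting had 1 call. With array medians subtracted the DNA-binding factors had 1 call. Trend and robust eBayes left 5 sperm calls and 0 for zygotic embryo. Removing the length trend left 5 for sperm, 1 for DNA-binding factors and 0 for zygotic embryo. The cause of these shifts was not tested.

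With array weights 41.3% of all probe sets passed, and 6 members: vit-1 (-0.47), vit-2 (-0.36), vit-4 (-0.40), vit-5 (-0.45), rme-2 (0.37) and unc-62 (1.39). The lists then had 8 calls for DNA-binding factors, 9 for signalling, 14 for yolk uptake, 7 for lipoprotein assembly, 7 for intestine, 9 for oocyte, 8 for zygotic embryo, 2 for male neurons and 11 for moulting. With the length trend removed and wild-type replicate 4 left out together, a setting chosen after the data were seen, 8935 probe sets (35% of those tested) and 7 members passed. These were vit-1 (-0.77), vit-2 (-0.61), vit-4 (-0.68), vit-5 (-0.71), vit-6 (-0.34), unc-62 (0.79) and ceh-60 (-0.55). The lists had 4 calls for DNA-binding factors, 9 for signalling, 13 for yolk uptake, 7 for lipoprotein assembly, 3 for intestine, 11 for oocyte, 7 for zygotic embryo, 1 for male neurons and 11 for moulting.

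With 1 array left out at a time, 51 (without wild-type replicate 2) to 9726 (without wild-type replicate 4) probe sets and 0 to 5 members passed. Without any of the other 7 arrays 51 to 201 passed. The log2 difference ran from -0.54 to -0.26 for vit-1, -0.39 to -0.17 for vit-2, -0.45 to -0.18 for vit-4, -0.48 to -0.15 for vit-5, 0.14 to 0.39 for rme-2, 0.78 to 1.35 for unc-62, -0.10 to -0.08 for vit-6 and -0.20 to -0.07 for ceh-60. Calls ran from 0 to 7 for DNA-binding factors, 0 to 9 for signalling, 0 to 13 for yolk uptake, 0 to 7 for lipoprotein assembly, 0 to 5 for intestine, 0 to 5 for oocyte, 0 to 7 for zygotic embryo, 0 to 11 for sperm, 0 to 1 for male neurons and 0 to 11 for moulting.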
